A study of Danio rerio with 17 samples.

Results

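The genes described here are the 67 members of the TGF-beta and BMP family and of its core signaling chain among the 30220 genes of the deposited table, followed across 6 groups of sorted zebrafish cells. They were chosen by gene symbol alone, namely the TGF-beta ligands and their receptors, bmp and bmpr genes, activin subunits (inhb) and activin-type receptors (acvr), growth differentiation factors (gdf), numbered Smads, latent TGF-beta binding proteins (ltbp) and the bambi pseudoreceptors. By role they fell into 31 ligands (5 TGF-beta, 3 activin, 13 BMP and 10 GDF genes), 19 receptors (11 of type I, 7 of type II and 1 co-receptor), 2 pseudoreceptors, 10 Smads and 2 latent binding proteins. The other 3 were caught by their symbol only, since bmp1a and bmp1b encode secreted metalloproteases that cleave procollagen and other matrix proteins, and bmp2k encodes an intracellular kinase.

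Ligands of this family are secreted dimers that bring type II and type I serine/threonine kinase receptors together, and the type I receptor then phosphorylates a receptor-regulated Smad, which enters the nucleus with the common Smad4. TGF-beta and activin ligands mostly act through Smad2 and Smad3, and BMP ligands through Smad1, Smad5 and Smad9, while Smad6, Smad7 and the kinase-dead Bambi receptors dampen the signal. In blood vessels, TGF-beta signaling is known for its part in the differentiation of smooth muscle cells, and the endothelial type I receptor Acvrl1, also called Alk1, for its part in arteriovenous patterning.

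RNA-seq had been run on 17 libraries of cells dissociated from zebrafish embryos and sorted for a fluorescent transgene. Positive and negative cells of each line were compared, the positive ones being mural cells (the smooth muscle cells and pericytes of the vessel wall) or endothelial cells. In the acta2 line, Tg(acta2:egfp), the smooth muscle actin promoter drives the reporter, and 3 positive (mural) and 3 negative (non-mural) libraries came from embryos of 4 days post fertilization. The second mural line, Tg(acta2:mcherry);(foxc1b:egfp), called acta2/foxc1b here and also sampled at 4 days, gave 2 positive (mural) and 3 negative libraries, and the labels do not say which of the reporters the sorted cells carried. In the kdrl line, Tg(kdrl:mcherry), where the promoter of a vascular endothelial growth factor receptor drives the reporter, 3 positive (endothelial) and 3 negative libraries came from embryos of 5 days whose cells had been fixed before sorting. All groups were otherwise untreated and carried only their line's transgenes, as far as the labels say. The labels do not say whether replicates came from separate clutches, so p-values measure the spread between these libraries, which may be technical.

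The libraries held 10474235 to 40868765 reads counted in genes. The 11 mural cell marker genes summed to between 44981 and 85629 normalized reads in acta2-positive and to between 2416 and 2951 in acta2-negative libraries, and to between 85635 and 183696 in acta2/foxc1b-positive against 894 to 2693 in acta2/foxc1b-negative libraries. The 13 endothelial markers summed to between 32939 and 121213 in kdrl-positive and 2433 to 2790 in kdrl-negative libraries, so the sorted groups carried the markers of their labels. Leukocyte markers also stood higher in kdrl-positive libraries (5 of 6 called, 8549 to 24866 against 777 to 2778 normalized reads in kdrl-negative ones), as did epidermis markers (1 of 5 called, 40077 to 326789 against 14535 to 49139). The sum of the mural markers was also higher in kdrl-positive libraries (4360 to 10663 against 2398 to 3355), though their median log2 fold change was -0.24. Of these 11, myh11a (3.13) and myl9a (2.84) were called higher and cspg4 (-1.96) lower. Pigment cell markers summed higher in acta2-positive libraries (2 of 5 called, 1645 to 1992 against 209 to 979 in acta2-negative ones). Among them, dct (-4.02) and tyrp1b (-0.13) were below 0 without being called. Cartilage and fibroblast markers stood higher in acta2-positive libraries (2 of 7 called, 903883 to 1120430 against 340248 to 349533 in acta2-negative ones) and lower in kdrl-positive libraries (3 of 7 called, 14279 to 39806 against 48166 to 102923 in kdrl-negative ones). Negative replicate 2 of the acta2/foxc1b line stood apart, correlating at 0.782 and 0.786 with its own replicates across genes, where all other pairs of replicates correlated at 0.874 to 0.956. Its epidermis marker sum was 1691130, against 8898 and 17904 in the other acta2/foxc1b-negative libraries. In bulk samples of this kind, fewer cells of a type and less RNA per cell cannot be told apart.

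All values below are normalized read counts, that is, reads per gene divided by the authors' size factor for the library. Fold changes are positive over negative cells on the scale of log2(value + 1), fitted with limma within each line. A call means a Benjamini-Hochberg adjusted p under 0.05 over all genes tested in that comparison. Of the 67 members, 60 reached the minimum of 10 normalized reads in enough libraries to be tested in the acta2 line, 63 in the acta2/foxc1b line and 67 in the kdrl line. The 7 members not tested in the acta2 line were acvr1bb, acvr1c, bmp10, bmp10l, bmp7a, gdf2 and gdf6b, and 4 of these (bmp10l, bmp7a, gdf2 and gdf6b) were not tested in the acta2/foxc1b line either.

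**Figure D1:**
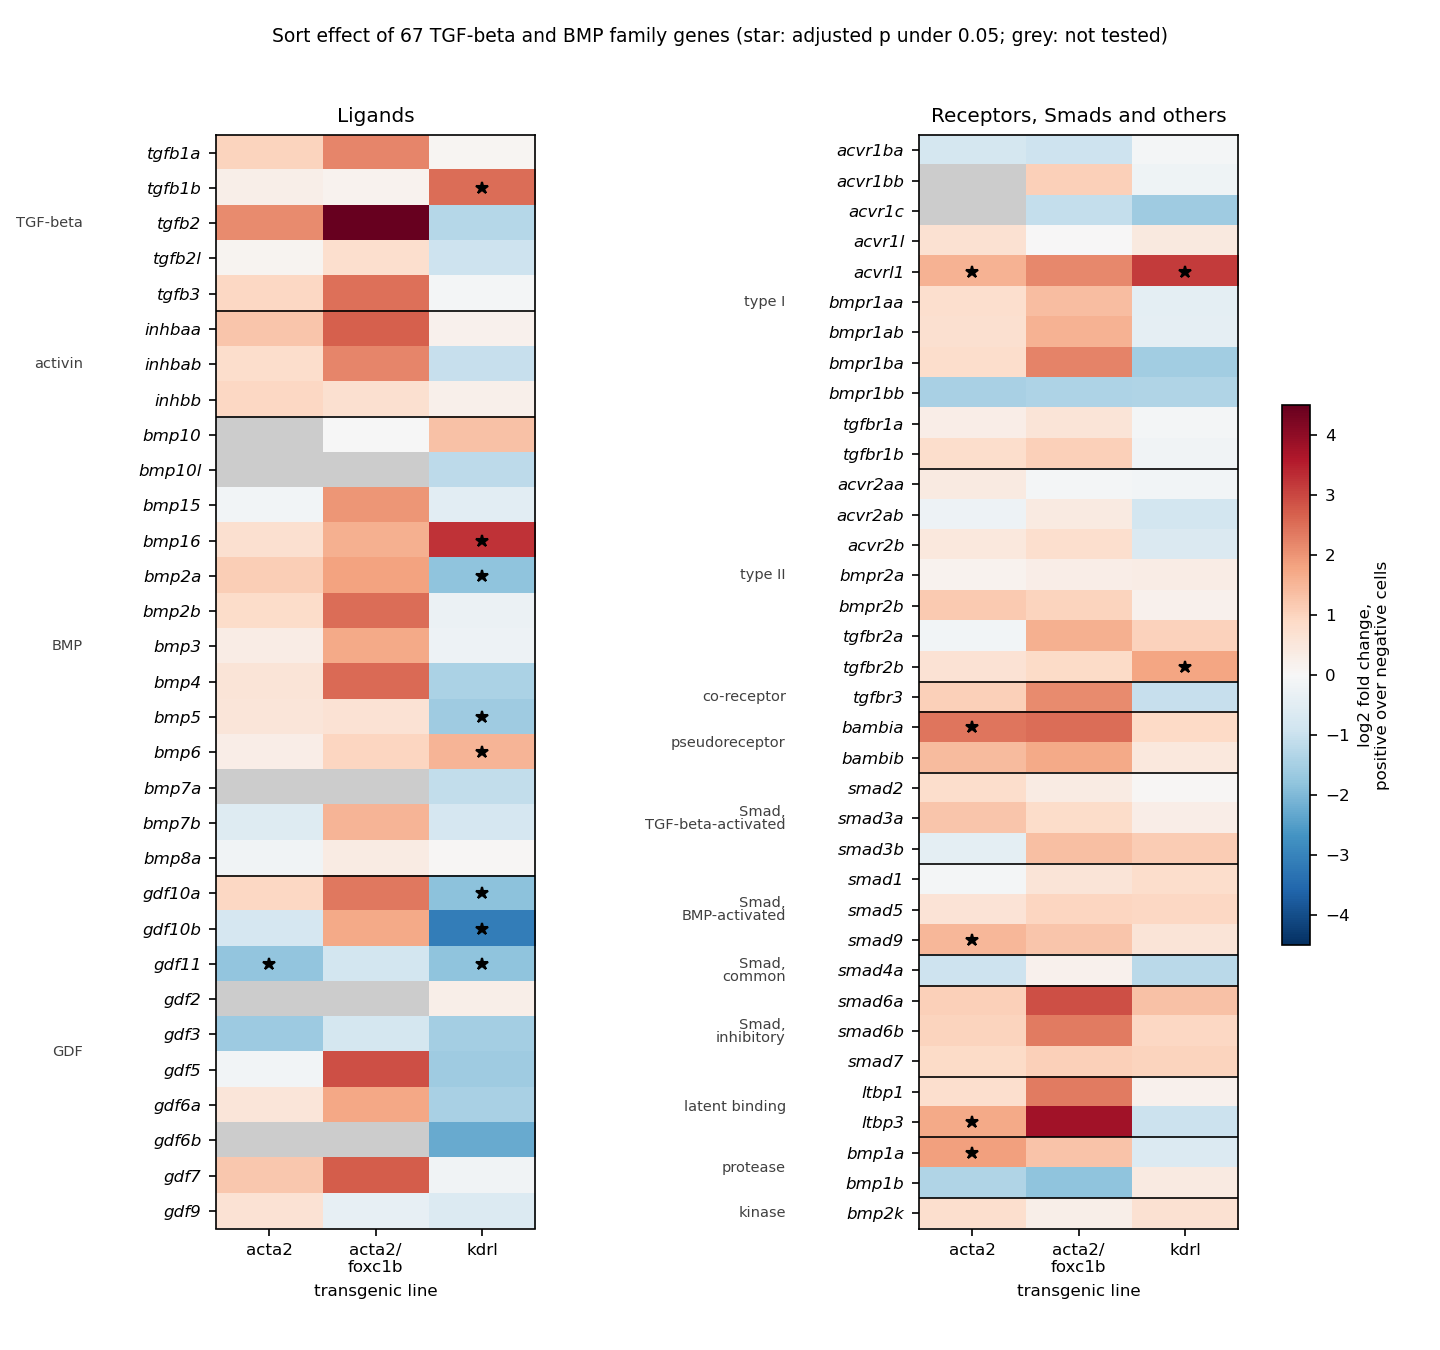
Log2 fold change of positive over negative cells (color) for all 67 members (rows, ligands on the left, other roles on the right) in the acta2, acta2/foxc1b and kdrl lines (columns), with stars for limma adjusted p under 0.05 and grey for members not tested. Most cells of the acta2 and acta2/foxc1b columns are red (45 of 60 and 54 of 63 members above 0). The kdrl column holds 9 of 10 GDF ligands below 0, several of these at few reads. Smads are mostly above 0 in every column (7 of 10 in acta2, 10 of 10 in acta2/foxc1b and 9 of 10 in kdrl).

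In acta2-positive mural cells, 5 members rose against acta2-negative cells, namely the pseudoreceptor bambia, the latent binding protein ltbp3, the receptor acvrl1, the Smad gene smad9 and the protease gene bmp1a, and 1 fell, the ligand gdf11 (limma, Benjamini-Hochberg adjusted p under 0.05). Among all 20582 genes tested, 3.26% were called higher and 3.75% lower, against 5 and 1 of 60 members. The 2 largest of these in relation to their error were bambia (5.30-fold) and ltbp3 (3.23-fold). Cartilage and fibroblast (2 of 7) and pigment cell (2 of 5) markers were also called higher in the acta2-positive libraries. The part of these markers in the members' rises was not tested.

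The ligands as a group had 19 of 26 tested genes above 0, with a median log2 fold change of 0.56, and only gdf11 was called. The 5 TGF-beta ligands and the 3 activin subunits all had positive log2 fold changes, and none of the 8 was called. gdf11, a ligand known in vertebrates for patterning the trunk and limiting neuron number, had 105, 152 and 132 normalized reads in acta2-positive libraries, against 558, 422 and 364 in acta2-negative libraries. Every acta2-positive library lay below every acta2-negative one, by 3.42-fold (log2 fold change -1.77, SE 0.36, limma adjusted p = 0.0227). The neuron markers were lower in the same libraries (4 of 6 called, summed 1268 to 4340 in acta2-positive against 14878 to 27580 normalized reads in acta2-negative libraries). Photoreceptor (4 of 6), lens (4 of 4 tested), erythroid (2 of 4), skeletal muscle (2 of 8) and leukocyte (1 of 6) markers were called lower there as well. The part of any of these markers in the gdf11 difference was not tested. The gdf11 call was lost without positive replicate 3 (adjusted p = 0.0668) and without negative replicates 1, 2 or 3 (adjusted p = 0.0657, 0.0902 and 0.0694).

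tgfb2, a TGF-beta ligand, had 84.4, 357 and 430.1 normalized reads in acta2-positive libraries and 28.2, 63.7 and 85.3 in acta2-negative libraries. The groups overlapped, because positive replicate 1 lay just below negative replicate 3, and the log2 fold change of 2.11 (SE 0.70) had a limma adjusted p of 0.106. Without positive replicate 1 it was 2.85, and the gene was called (adjusted p = 0.028). tgfb3, also a TGF-beta ligand and among the members with the most reads, had 6652, 3877 and 3094 in acta2-positive libraries, against 2762, 2553 and 1659.9 in acta2-negative ones. The tgfb3 groups did not overlap, but its log2 fold change of 0.92 was not called (limma adjusted p = 0.157). bmp3, a BMP ligand that in mammals counters other BMPs, had 8502, 7849.7 and 7311 in acta2-positive and 5702, 6931 and 6252 in acta2-negative libraries, a log2 fold change of 0.33 that was not called (limma adjusted p = 0.482).

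Of 17 receptors tested, 13 were above 0, with a median log2 fold change of 0.64, and 1 was called. acvrl1 had 2663, 1327 and 1137 normalized reads in acta2-positive libraries, against 632, 481 and 502 in acta2-negative libraries. The groups did not overlap, and positive replicate 1 was the highest by about 2-fold (means 1709 ± 832 and 539 ± 81.9, SD, n = 3 each; log2 fold change 1.57, SE 0.37, limma adjusted p = 0.0378). The acvrl1 call was lost when any 1 of the 6 libraries was left out, with adjusted p between 0.0545 and 0.128. The 13 endothelial markers held no call in this line and summed to between 4119 and 5035 in acta2-positive and 3544 and 5542 normalized reads in acta2-negative libraries. Of these markers, kdrl was higher without overlap, with 826, 887 and 662 in acta2-positive against 546, 227 and 230.5 in acta2-negative libraries (log2 fold change 1.36, limma adjusted p = 0.078). In contrast, sox18 (log2 fold change -1.48, limma adjusted p = 0.0505), cldn5b (-0.94, 0.136) and tek (-1.91, 0.209) were lower without overlap. The part of these markers in the acvrl1 difference was not tested.

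acvr1l, a type I receptor of the BMP branch in zebrafish, had 6743, 4819 and 3900.3 normalized reads in acta2-positive and 2732, 3339 and 3285 in acta2-negative libraries, without overlap, and was not called (log2 fold change 0.69, limma adjusted p = 0.189). acvr1ba, an activin type I receptor, ran the other way, with 2028, 2159 and 3032 in acta2-positive and 4319, 4033 and 3972 in acta2-negative libraries. Its groups did not overlap either, and its log2 fold change of -0.79 was not called (limma adjusted p = 0.118). The uncalled members with the smallest p were the BMP type II receptor bmpr2b (log2 fold change 1.17, limma adjusted p = 0.0638) and the activin subunits inhbaa (1.24, 0.091) and inhbb (0.94, 0.0919).

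bambia, which encodes a membrane protein that resembles a type I receptor but lacks the kinase, had 3317, 3236 and 3535 normalized reads in acta2-positive libraries and 499.6, 636 and 799 in acta2-negative libraries. All 3 positive libraries lay within a narrow range far above the negative ones, and the log2 fold change of 2.41 (SE 0.28, limma adjusted p = 0.00474) was called without each of the 6 libraries in turn. Its duplicate bambib had 5306, 5933 and 2607 in acta2-positive and 3898, 903 and 1195 in acta2-negative libraries, with overlap and a log2 fold change of 1.43 that was not called (limma adjusted p = 0.153). Without negative replicate 1 the bambib log2 fold change was 2.06, and it was called (adjusted p = 0.035).

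Of the 10 Smads, 7 were above 0 (median log2 fold change 0.84) and 1 was called. smad9, of the BMP-activated class, had 1005, 1116 and 1899.8 normalized reads in acta2-positive libraries, against 461, 402 and 494 in acta2-negative libraries. The lowest positive library had about 2-fold the reads of the highest negative one (log2 fold change 1.51, SE 0.33, limma adjusted p = 0.0292). The smad9 call held without positive replicate 1 and was lost without each of the other 5 libraries (adjusted p from 0.051 to 0.110). The other BMP-activated Smads gave 1369.8, 1824 and 1446 in acta2-positive and 1592, 1861 and 1428 in acta2-negative libraries for smad1, and 3159, 2077 and 1563 against 1701, 1182 and 1447 for smad5. Both overlapped between groups, and neither was called.

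ltbp3, whose product binds latent TGF-beta and holds it in the matrix, had 4407, 4299.6 and 4082 normalized reads in acta2-positive libraries, against 1357, 1464 and 1152 in acta2-negative libraries. As with bambia, the positive libraries were close together and clear of the negative ones, and the log2 fold change of 1.69 (SE 0.25, limma adjusted p = 0.00858) was called without each library in turn. The related ltbp1 scattered widely within each group, with 960.1, 1634 and 3368 in acta2-positive and 1817, 1398 and 442 in acta2-negative libraries, and was not called. bmp1a had 5942, 1959 and 1831 in acta2-positive and 867, 793 and 662 in acta2-negative libraries, without overlap and with positive replicate 1 far above the others (log2 fold change 1.85, SE 0.45, limma adjusted p = 0.0413). The bmp1a call was lost without positive replicate 3 (adjusted p = 0.0545) and without negative replicates 1, 2 or 3 (0.083, 0.124 and 0.133). Its duplicate bmp1b had 21.9, 27.9 and 9.44 in acta2-positive and 20.02, 78.5 and 65.9 in acta2-negative libraries, and was not called.

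Over all 60 members tested in the acta2 line, the median log2 fold change was 0.71, against -0.06 over all genes, and 45 were above 0, where 47.6% of all genes were. The groups did not overlap for 26 members with higher positive cells (15.1% of all genes) and for 3 with lower ones, acvr1ba, gdf11 and gdf3 (15.7%). edgeR's quasi-likelihood test on the recovered reads called the same 5 higher members (2.86% of genes) and 1 lower (2.97%). DESeq2 on these reads called 9 higher (6.65% of genes), with bmpr2b, inhbaa, smad3a and tgfb2 added, and the same 1 lower (7.99%). At an unadjusted limma p under 0.05 there were 21 higher (11.1% of genes) and 3 lower (13.0%). In the authors' deposited table, 4 of these 6 (acvrl1, bambia, bmp1a and smad9) had an adjusted p under 0.05 in this line, where 2.43% of genes were called higher, and no member was called lower (3.22% of genes).

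**Figure D2:**
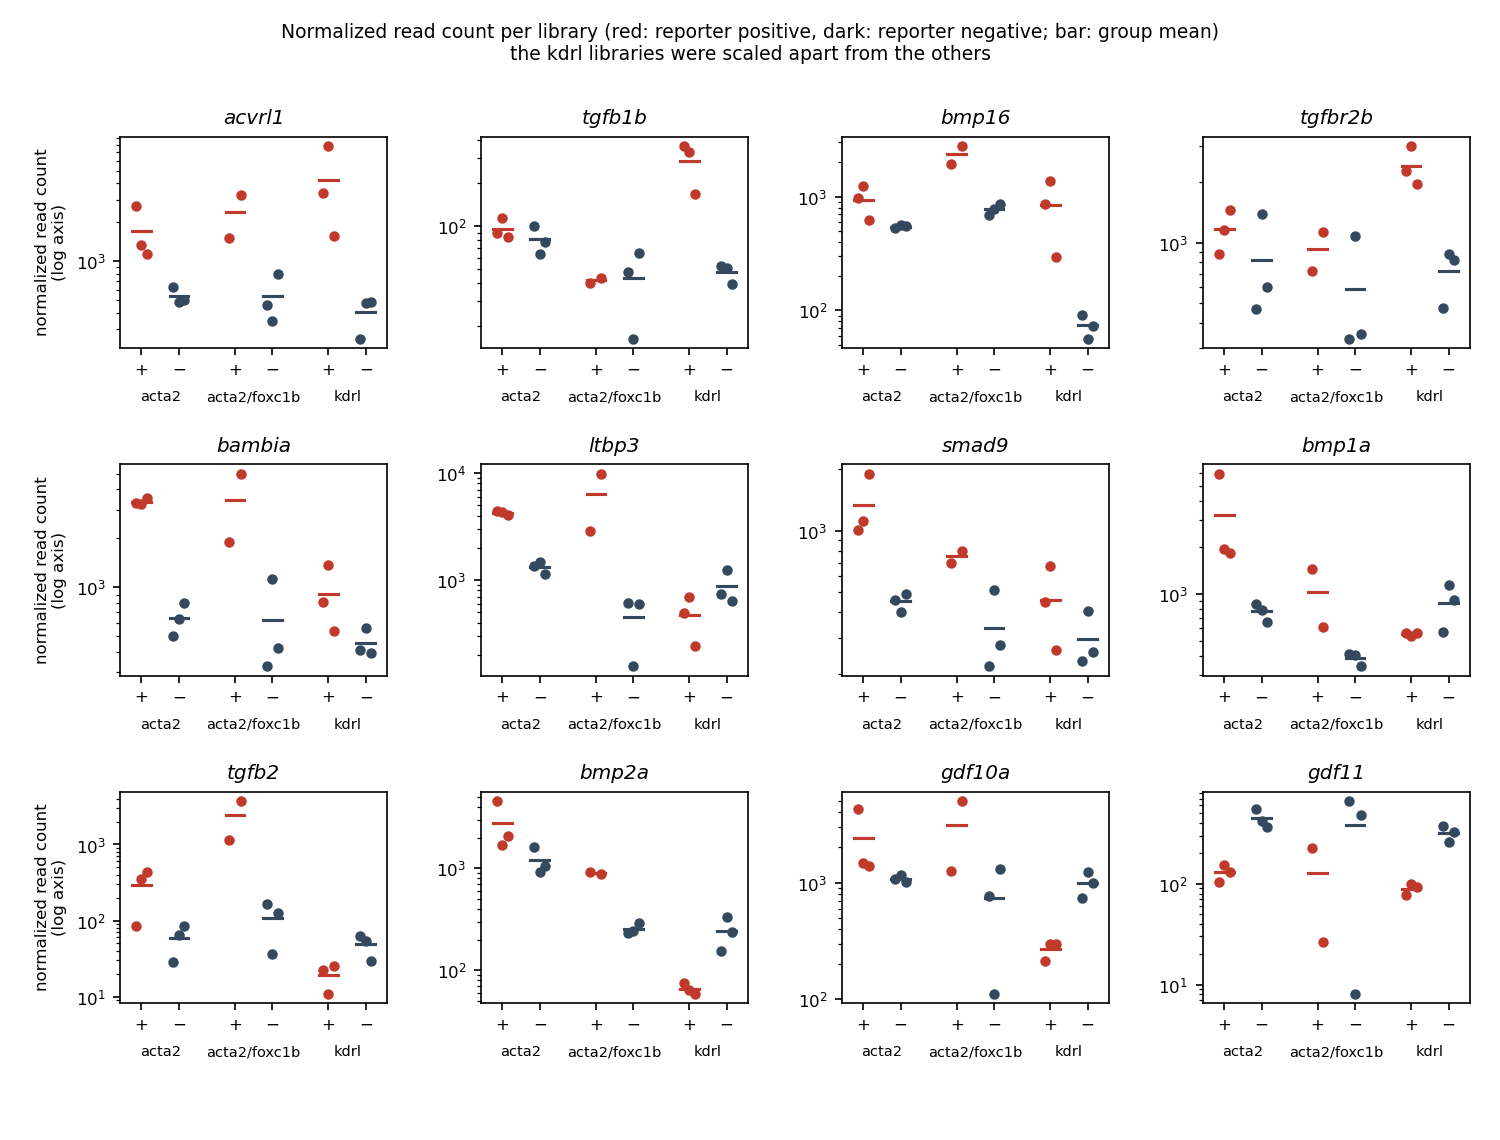
Normalized read count per library (log axis) for 12 members in positive (red) and negative (dark) cells of each line, with bars at group means and n = 3 libraries per group except 2 acta2/foxc1b-positive ones. acvrl1 is higher in the positive cells of every line, bambia and ltbp3 are tight in acta2-positive cells at 3236 to 3535 and 4082 to 4407, and tgfb1b and tgfbr2b stand clear of their negative cells in the kdrl line (tgfb1b at 168 to 363 against 39.0 to 52.6).

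In acta2/foxc1b-positive cells, the TGF-beta ligands tgfb2 and tgfb3, the BMP ligand bmp2b and ltbp3 had the members' smallest p against acta2/foxc1b-negative cells, and no member passed the limma or the edgeR test. limma called 6 of all 22116 genes higher in this line (0.0271%) and 0 lower, and edgeR called 0 genes. DESeq2 on the same reads called 9 members higher, where it called 3.0% of genes, and 0 lower, where it called 4.89%. The 9 were bmp2b, bmp4, inhbaa, inhbab, ltbp1, ltbp3, smad6a, tgfb2 and tgfb3. At an unadjusted limma p under 0.05 there were 22 members higher (5.51% of genes) and 0 lower (5.94% of genes). The authors' deposited table called 20 members higher in this line (5.17% of genes) and 0 lower (6.31%).

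tgfb2 had 1139 and 3677 normalized reads in the 2 acta2/foxc1b-positive libraries and 164, 35.8 and 125 in the 3 negative ones. Both positive libraries were well above all negative ones, and the fold of 22.4 (log2 fold change 4.49, SE 0.88, limma adjusted p = 0.132) was the largest of any member in any of the 3 lines. bmp2b, a dorsoventral patterning ligand of the early fish embryo, had 2986 and 3215 in acta2/foxc1b-positive libraries, against 635, 494 and 523 in the negative ones, a tight separation within both groups (log2 fold change 2.50, SE 0.50, limma adjusted p = 0.136). tgfb3 had 3662 and 6116 in acta2/foxc1b-positive libraries, against 813, 1034 and 746 in the negative ones, again without overlap (log2 fold change 2.47, SE 0.54, limma adjusted p = 0.149).

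bmp4, a ligand paired with bmp2 genes in many tissues, had 1535 and 423 normalized reads in acta2/foxc1b-positive and 200.4, 76.4 and 171 in the negative libraries. inhbaa, which encodes an activin subunit, had 1600.0 and 4110.5 in acta2/foxc1b-positive and 666, 254 and 362 in the negative libraries. Neither overlapped, and the positive libraries of each differed from one another by more than 2-fold. bmp16, a BMP ligand of fishes, had 1940.3 and 2762 in acta2/foxc1b-positive and 683, 772 and 859 in the negative libraries, also without overlap and not called (log2 fold change 1.59, limma adjusted p = 0.304). gdf11 spread over 229 and 26.7 in acta2/foxc1b-positive and 656, 8.13 and 481 in the negative libraries. Its low negative value was negative replicate 2. That library's neuron marker sum was 1164, against 44630 and 65426 in the other acta2/foxc1b-negative libraries. The same library's liver, gut and pancreas marker sum was 428691, against 3569 and 5001. The part of these markers in the gdf11 value was not tested. The gdf11 log2 fold change ran from -2.82 to 0.69 when single libraries were left out.

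Among the other roles, ltbp3 had 2886 and 9788 normalized reads in acta2/foxc1b-positive and 618, 158 and 597 in the negative libraries (log2 fold change 3.77, SE 0.85, limma adjusted p = 0.158). bambia had 1899 and 4983 in acta2/foxc1b-positive and 327, 1130.3 and 419.9 in the negative libraries (log2 fold change 2.52, SE 0.75, limma adjusted p = 0.269), and acvrl1 had 1505 and 3280.1 against 455, 346 and 799 (2.15, SE 0.64, limma adjusted p = 0.268). All 3 separated the groups in this line as in the acta2 line. smad9 had 699 and 800.3 in acta2/foxc1b-positive and 218, 512 and 276 in the negative libraries, and smad6a, an inhibitory Smad gene that BMP signaling is known to induce, 1345 and 4889.6 against 489, 166 and 495. acvr1ba again ran lower, with 1910.0 and 3301 in acta2/foxc1b-positive and 3964, 6699 and 4084 in the negative libraries, without overlap and not called (log2 fold change -0.93, limma adjusted p = 0.647).

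DESeq2 called 9 members higher with all libraries kept. The limma calls in this line, fitted with no term for replicate number, turned on negative replicate 2. Without it, limma called 5 members higher, bambia (log2 fold change 3.05, adjusted p = 0.0401), bmp2b (2.43, 0.0293), ltbp3 (3.13, 0.0474), tgfb2 (3.83, 0.0306) and tgfb3 (2.60, 0.0318), and 0 lower, where the same fit called 1.63% of all genes higher and 2.13% lower. With all libraries, the median log2 fold change over the 63 members tested was 1.25, against -0.11 over all genes, and 54 were above 0, where 46.0% of all genes were. By role, 23 of 27 ligands, 15 of 19 receptors and 10 of 10 Smads were above 0, the Smads becoming 9 of 10 without positive replicate 1. The groups did not overlap for 38 members with higher positive cells (14.8% of all genes) and for 2 with lower ones, acvr1ba and bmp1b (14.8%). Markers of several other cell types separated the same groups, though limma called 0 of them in this line. Summed skeletal muscle markers (8 genes) stood at 205165 to 405796 normalized reads in acta2/foxc1b-positive against 11750 to 32018 in the negative libraries. Cartilage and fibroblast markers (7) summed to 301408 to 672001 against 111040 to 180473, and pigment cell markers (5) to 1907 to 1931 against 452 to 609. The pigment marker gch2 alone had 998 and 1771 in the positive libraries. Single markers ran against these sums, with log2 fold changes below 0 for myog (-2.33), scxa (-0.75), tyrp1b (-2.49) and dct (-3.17). Photoreceptor, lens, erythroid, leukocyte, and liver, gut and pancreas markers were lower in the positive libraries, also without overlap. The part of these markers in the members' values was not tested.

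The acta2 and acta2/foxc1b lines share no library, and their fold changes are set side by side here as a description, since no member was called by limma in the acta2/foxc1b line. Of the 60 members tested in both, 43 were above 0 in both lines and 5 below 0 in both, so that 80.0% had the same sign, against 67.9% of all genes tested in both. Across these members the fold changes correlated at a Pearson r of 0.666, and across all genes at 0.582, as a description, since genes are not independent and the libraries of both lines were scaled together. When the acta2 sort effect was subtracted from the acta2/foxc1b one in a joint limma fit, 0 members were called, and limma and edgeR called 0 of all 23438 genes. DESeq2 called 0 members, against 0.649% of genes higher and 0.452% lower. At an unadjusted p under 0.05, 4 members had a larger effect in the acta2/foxc1b line (2.77% of genes), bmp2b (difference of log2 fold changes 1.67), bmp4 (1.97), ltbp3 (2.08) and tgfb3 (1.54), and 0 had a smaller one (2.22% of genes). Of 64 members, 49 had a difference above 0, where 50.3% of all genes did. A missing call does not show that the lines were alike.

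**Figure D3:**
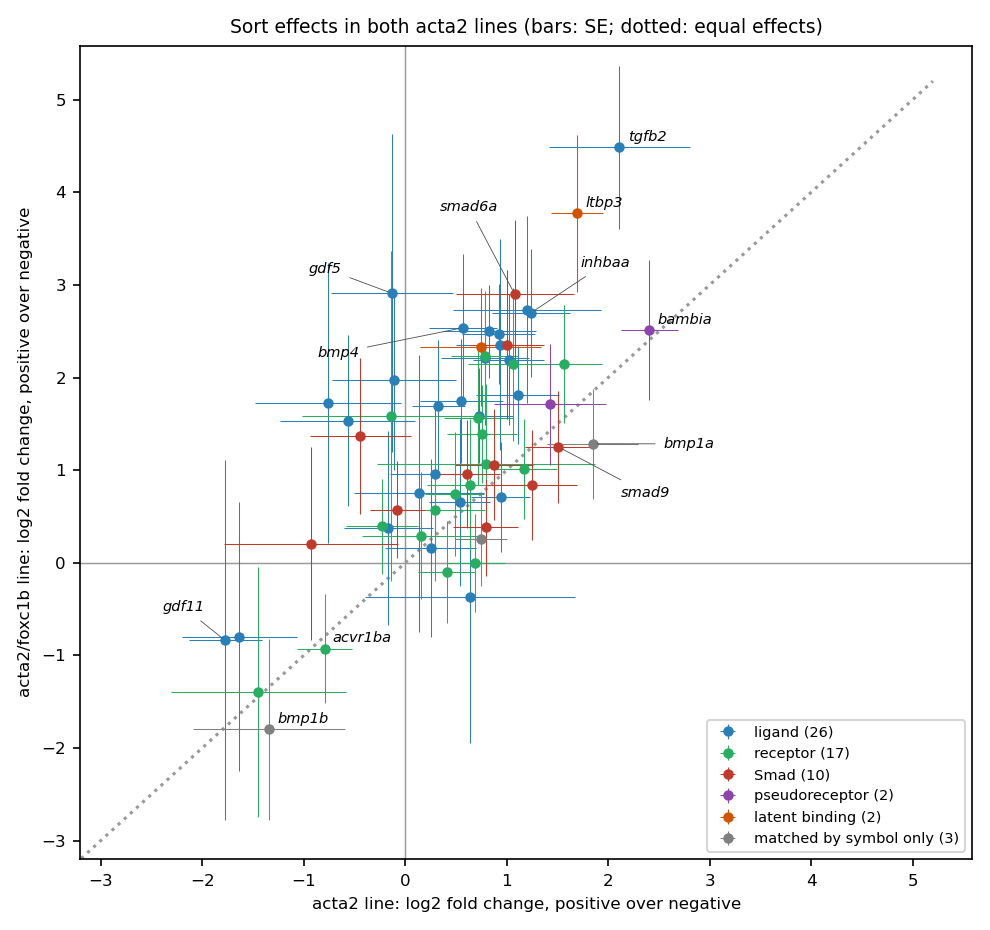
Log2 fold change of positive over negative cells in the acta2/foxc1b line (vertical axis) against the acta2 line (horizontal axis) for the 60 members tested in both, colored by role, with bars for the standard error and a dotted line of equal effects. Most points lie in the upper right (43 members), tgfb2 (4.49 and 2.11) and ltbp3 (3.77 and 1.69) reach highest, and the vertical bars are the longer ones.

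In kdrl-positive endothelial cells, 5 members rose against kdrl-negative cells, the receptors acvrl1 and tgfbr2b and the ligands bmp16, tgfb1b and bmp6, and 5 fell, the ligands bmp2a, bmp5, gdf10a, gdf10b and gdf11 (limma, adjusted p under 0.05). Of all 24903 genes tested, 3.17% were called higher and 2.79% lower, against 5 and 5 of 67 members. The rises of acvrl1 (8.87-fold), bmp16 (9.62-fold) and tgfb1b (5.68-fold) were called without each of the 6 libraries in turn. Leukocyte (5 of 6), epidermis (1 of 5) and liver, gut and pancreas (1 of 5) markers were also called higher in the kdrl-positive libraries. The part of these markers in the members' rises was not tested. The kdrl calls of members, also those without a library, were fitted with no term for replicate number. In a further fit the replicate number was taken as a block. Libraries of the same number deviated together here, those of replicate 2 only weakly (correlations of 0.475, 0.128 and 0.422). With the block, 6 members were higher (7.08% of genes) and 9 lower (6.41%). The additions were smad6a (limma adjusted p = 0.0314) on the higher side and bmp4 (0.0252), bmpr1ba (0.0227), gdf6a (0.0323) and the co-receptor tgfbr3 (0.0464) on the lower side.

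The TGF-beta ligand tgfb1b had 363, 333 and 168 normalized reads in kdrl-positive libraries, against 52.6, 51.2 and 39.0 in kdrl-negative libraries. Every positive library was more than 3-fold above every negative one (log2 fold change 2.51, SE 0.42, limma adjusted p = 0.00869). Its duplicate tgfb1a had 178, 118 and 63.6 in kdrl-positive and 107, 196 and 53.5 in kdrl-negative libraries, overlapping and not called (log2 fold change 0.08, limma adjusted p = 0.941). tgfb2 had few reads in this line, with 22.5, 10.9 and 24.98 in kdrl-positive and 62.5, 53.0 and 29.7 in kdrl-negative libraries, without overlap and not called (log2 fold change -1.28, limma adjusted p = 0.221). tgfb3 had 1168, 1257 and 845 in kdrl-positive and 905, 1774 and 934 in kdrl-negative libraries, with groups that overlapped.

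bmp16 had 858, 1375 and 295 normalized reads in kdrl-positive libraries, against 91.4, 56.5 and 73.0 in kdrl-negative libraries. The positive libraries differed among themselves by more than 4-fold and still lay clear of the negative ones (log2 fold change 3.27, SE 0.53, limma adjusted p = 0.00741). bmp6, a BMP ligand that endothelial cells of the mammalian liver secrete to control iron balance, had 223, 331 and 186 in kdrl-positive and 87.6, 65.3 and 99.3 in kdrl-negative libraries (log2 fold change 1.52, SE 0.38, limma adjusted p = 0.0454). The bmp6 groups did not overlap, but the call was lost with no filter on low values (adjusted p = 0.0626) and without any library except positive replicate 3 (0.0745 to 0.152). gdf2 and bmp10, which encode the circulating ligands BMP9 and BMP10 of Acvrl1, were at few reads, with 20.1, 5.46 and 11.4 in kdrl-positive against 22.1, 7.06 and 4.24 in kdrl-negative libraries for gdf2, and 56.3, 53.3 and 227 against 40.4, 21.2 and 50.1 for bmp10. Neither was called (limma adjusted p = 0.884 and 0.243).

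The BMP ligands that fell were bmp2a and bmp5. bmp2a had 75.3, 63.5 and 59.0 normalized reads in kdrl-positive libraries, against 153, 332 and 238 in kdrl-negative libraries (log2 fold change -1.79, SE 0.40, limma adjusted p = 0.0303). bmp5 had 126, 113 and 168 in kdrl-positive and 307, 652 and 336 in kdrl-negative libraries (log2 fold change -1.60, SE 0.39, limma adjusted p = 0.0412). Neither pair of groups overlapped. The bmp2a call was lost without positive replicates 1 or 2 (adjusted p = 0.0563 and 0.0577) and without negative replicates 2 or 3 (0.131 and 0.0804), and the bmp5 call without any library except positive replicate 3 (0.0663 to 0.155). bmp4 had 232, 276 and 177 in kdrl-positive and 372, 922 and 634 in kdrl-negative libraries, without overlap, and reached an adjusted p of 0.0647 with limma (log2 fold change -1.42). bmp3, in contrast, overlapped, with 987, 1329.8 and 665 in kdrl-positive and 825, 1564 and 1098 in kdrl-negative libraries.

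Of the 10 GDF ligands, 9 were below 0, with a median log2 fold change of -1.56, against -0.05 over all genes, and 3 were called. Several of them had few reads, such as gdf9 (means of 21.8 normalized reads in kdrl-positive and 22.5 in kdrl-negative libraries) and gdf6b (5.64 and 17.6). The authors' deposited log2 fold changes were just above 0 for gdf7 (0.0617) and gdf9 (0.0038), both below 0 here. With a mean value of at least 50 required, the median over all ligands in this line moved from -0.77 to -0.23. gdf10a, a relative of bmp3, had 215, 299 and 299.8 normalized reads in kdrl-positive libraries, against 745, 1231 and 985 in kdrl-negative libraries (log2 fold change -1.85, SE 0.34, limma adjusted p = 0.0126). Its duplicate gdf10b had few reads, at 20.5, 24.6 and 4.54 in kdrl-positive and 122, 157 and 98.5 in kdrl-negative libraries (log2 fold change -3.10, SE 0.64, limma adjusted p = 0.0216). Both gdf10 genes thus had their lowest negative library above their highest positive one. gdf11 had 76.8, 99.0 and 93.1 in kdrl-positive and 373, 259.5 and 323 in kdrl-negative libraries (log2 fold change -1.81, SE 0.35, limma adjusted p = 0.0159), a fall of about the same size as in the acta2 line. Leaving out negative replicate 2 ended the calls of gdf10a (adjusted p = 0.0663), gdf10b (0.095) and gdf11 (0.0506), and leaving out negative replicate 1 those of gdf10b (0.0941) and gdf11 (0.0837). The photoreceptor markers (6 of 6 called), 3 of 7 cartilage and fibroblast markers and 2 of 8 skeletal muscle markers were lower in the same kdrl-positive libraries. Of the 6 neuron markers, 0 were called there (median log2 fold change -1.51). The part of any of these markers in these falls was not tested.

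Of 19 receptors, 6 were above 0, and 2 of those were called. The count above 0 became 4 without positive replicate 2, 10 without positive replicate 3 and 9 with quantile normalization. acvrl1 had 3400.3, 7735 and 1558 normalized reads in kdrl-positive libraries, against 252, 477 and 485 in kdrl-negative libraries. The lowest positive library was more than 3-fold above the highest negative one (means 4231 ± 3171 and 404.5 ± 132, SD, n = 3 each; log2 fold change 3.15, SE 0.54, limma adjusted p = 0.010). tgfbr2b, a TGF-beta type II receptor, had 2272, 3002 and 1946 in kdrl-positive and 475, 872 and 816 in kdrl-negative libraries, with tight groups that did not overlap (log2 fold change 1.76, SE 0.36, limma adjusted p = 0.0209). The tgfbr2b call was lost without positive replicates 1 or 2 (adjusted p = 0.0546 and 0.0556) and without negative replicates 1 or 2 (0.0698 and 0.0525). bmpr1ba, a BMP type I receptor, had 164, 154 and 61.3 in kdrl-positive and 296, 505 and 280.1 in kdrl-negative libraries, without overlap and not called without the block (log2 fold change -1.58, limma adjusted p = 0.0725). acvr1l, at 695, 1119 and 813 in kdrl-positive against 696, 558 and 666 in kdrl-negative libraries, and acvr1ba, at 1394, 2669 and 1599 against 1944, 1661 and 2137, overlapped between groups.

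Of the 10 Smads, 9 were above 0 in kdrl-positive cells with a median log2 fold change of 0.86. Without the block, 0 were called by limma or edgeR, and 1, smad6a, by DESeq2. With the block, limma also called smad6a. At an unadjusted limma p under 0.05, 6 of the 10 were higher (smad1, smad3b, smad5, smad6a, smad6b and smad7), a level that 11.0% of all genes reached. The count of Smads above 0 became 8 of 10 with quantile normalization and without positive replicate 2 or negative replicates 1 or 3. smad1 had 1463, 1756 and 1204 normalized reads in kdrl-positive and 626, 966 and 986 in kdrl-negative libraries, and smad5 had 1637, 2199 and 1665 against 575, 1269 and 1188. Every positive library lay above every negative one for both of these BMP-activated Smads. smad9 overlapped, with 448, 676 and 261 in kdrl-positive and 230.1, 404 and 255 in kdrl-negative libraries. smad6a had 687, 1382 and 459 in kdrl-positive and 247, 383 and 302 in kdrl-negative libraries, without overlap (log2 fold change 1.31, limma adjusted p = 0.103, and 0.0314 with the block).

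bambia, ltbp3 and bmp1a, which rose in acta2-positive cells, did not pass the test here. bambia had 814, 1378 and 538 normalized reads in kdrl-positive and 410.0, 563 and 393 in kdrl-negative libraries, with positive replicate 3 just below the highest negative library. ltbp3 had 488, 691 and 241 in kdrl-positive and 747, 1239 and 643 in kdrl-negative libraries (log2 fold change -0.96, limma adjusted p = 0.223), and ltbp1 1231, 1802 and 672 against 925, 1421 and 739. bmp1a had 562, 533 and 563 in kdrl-positive and 568, 1141 and 915 in kdrl-negative libraries, a narrow separation, and was not called (log2 fold change -0.60, limma adjusted p = 0.318).

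Over all 67 members the median log2 fold change in the kdrl line was -0.14, against -0.05 over all genes, and 29 were above 0, where 47.9% of all genes were. Without positive replicate 2, 24 were above 0 (49.1% of all genes) and the median was -0.28. Without positive replicate 3, 37 were above 0 (47.3% of all genes) and the median was 0.06. The groups did not overlap for 11 members with higher positive cells (15.3% of all genes) and 17 with lower ones (14.2%). edgeR called the same 5 higher members (3.1% of genes) and 6 lower ones (2.94%), with bmp4 added. DESeq2 called 6 higher (6.95%) and 9 lower (7.13%). At an unadjusted limma p under 0.05 there were 13 higher (11.0% of genes) and 12 lower (12.4%). The authors' deposited table called 6 higher (6.66% of genes) and 9 lower (6.62%). Replicate 2 was the highest library of its group for 39 of 67 members among kdrl-positive libraries (58.2%, against 31% of all genes) and for 40 of 67 among kdrl-negative ones (59.7%, against 29.5%).

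The acta2 and kdrl sort effects differed for 10 members in a joint limma fit, in which the kdrl effect was subtracted from the acta2 one. The effect was higher in the acta2 line for 8 (2.80% of 25490 genes), the ligands tgfb2, bmp2a, bmp4, bmp5 and gdf10a, the receptor bmpr1ba, ltbp3 and bmp1a, and lower for 2 (3.31%), bmp16 and tgfb1b. With the replicate number as a block in each line, 10 were higher (3.46% of genes), bambia (difference 1.5, adjusted p = 0.0423) and tgfbr3 (2.09, 0.0495) being added, and the same 2 were lower (4.66%), although only the kdrl libraries were taken as paired. The lines also differ in stage, fixation, amplification and library kit, and their tables were scaled apart, so that what belongs to the cell type and what to these cannot be told apart. Each effect is taken within its own line, against negative cells handled the same way, but the negative cells of the lines differ in their markers. Lens markers summed to 9089 to 14312 in acta2-negative and 274 to 644 in kdrl-negative libraries. Photoreceptor markers summed to 13483 to 85879 in acta2-negative and 40517 to 211407 in kdrl-negative libraries. The part of the negative cells in these differences was not tested.

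Among the ligands, bmp2a had 4522, 1684 and 2084 normalized reads in acta2-positive and 1622, 926 and 1055 in acta2-negative libraries, and its log2 fold change of 1.11 there stood against -1.79 in the kdrl line. That difference of 2.90 (SE 0.58, limma adjusted p = 0.00791) was called without each of the 12 libraries in turn. gdf10a, at 4308, 1467 and 1384 in acta2-positive and 1074, 1155 and 1011 in acta2-negative libraries, differed by 2.78 (SE 0.56, limma adjusted p = 0.00834), also without each of the 12. Both genes were above 0 in the acta2 line without being called there, and fell in the kdrl line. bmp5 had 619, 524 and 581 in acta2-positive and 437, 431 and 327 in acta2-negative libraries, without overlap, and differed by 2.14 (SE 0.50, limma adjusted p = 0.0192), a call lost without acta2 negative replicate 3 (0.0512) and kdrl negative replicate 2 (0.0607).

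bmp4 had 1412, 911 and 988 normalized reads in acta2-positive and 903, 836 and 514 in acta2-negative libraries, and differed by 1.99 (SE 0.53, limma adjusted p = 0.0389). That call held in 4 of 12 fits without a library (adjusted p up to 0.105 without kdrl negative replicate 2). tgfb2 differed by 3.40 (SE 0.96, limma adjusted p = 0.0484), a call that held in 1 of the 12 and was lost with no filter on low values (0.0587) and with a pseudocount of 0.5 (0.0515). The ligands with a larger effect in the kdrl line were bmp16, with 966, 1234 and 621 in acta2-positive and 526, 559.7 and 549.6 in acta2-negative libraries (difference -2.54, SE 0.67, limma adjusted p = 0.0349), and tgfb1b, with 89.1, 114 and 83.9 against 101, 63.7 and 77.7 (difference -2.25, SE 0.63, limma adjusted p = 0.0461). The groups of bmp16 did not overlap in either line, and those of tgfb1b overlapped in the acta2 line. Those calls held in 2 of 12 and 1 of 12 fits without a library, with adjusted p up to 0.0851 for bmp16 and up to 0.0989 for tgfb1b, and the tgfb1b call was lost with no filter on low values (0.0523).

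ltbp3 differed by 2.65 (SE 0.53, limma adjusted p = 0.00781) and was called without each of the 12 libraries. bmp1a differed by 2.45 (SE 0.58, limma adjusted p = 0.0208), a call lost without acta2 negative replicate 3 (0.052) and kdrl negative replicate 2 (0.0622). bmpr1ba had 3169.7, 1489 and 1739 normalized reads in acta2-positive and 1199, 1156 and 1163 in acta2-negative libraries, and differed by 2.36 (SE 0.59, limma adjusted p = 0.0269, called in 7 of the 12). acvrl1, which was called in both lines, had the smaller effect in the acta2 line, with a difference of -1.58 that was not called (limma adjusted p = 0.205). The difference for gdf11 was 0.04 (SE 0.50), beside its falls of 1.77 in the acta2 line and 1.81 in the kdrl line on the log2 scale. edgeR called the same 8 higher and 2 lower members (2.73% and 3.21% of genes), and DESeq2 11 higher (5.86%) and 2 lower (6.35%). Over all 67 members the median difference was 0.70, against -0.03 over all genes, and 48 were above 0, where 49.2% of all genes were. By role, 25 of 31 ligands and 12 of 19 receptors were above 0, and 5 of 10 Smads.

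**Figure D4:**
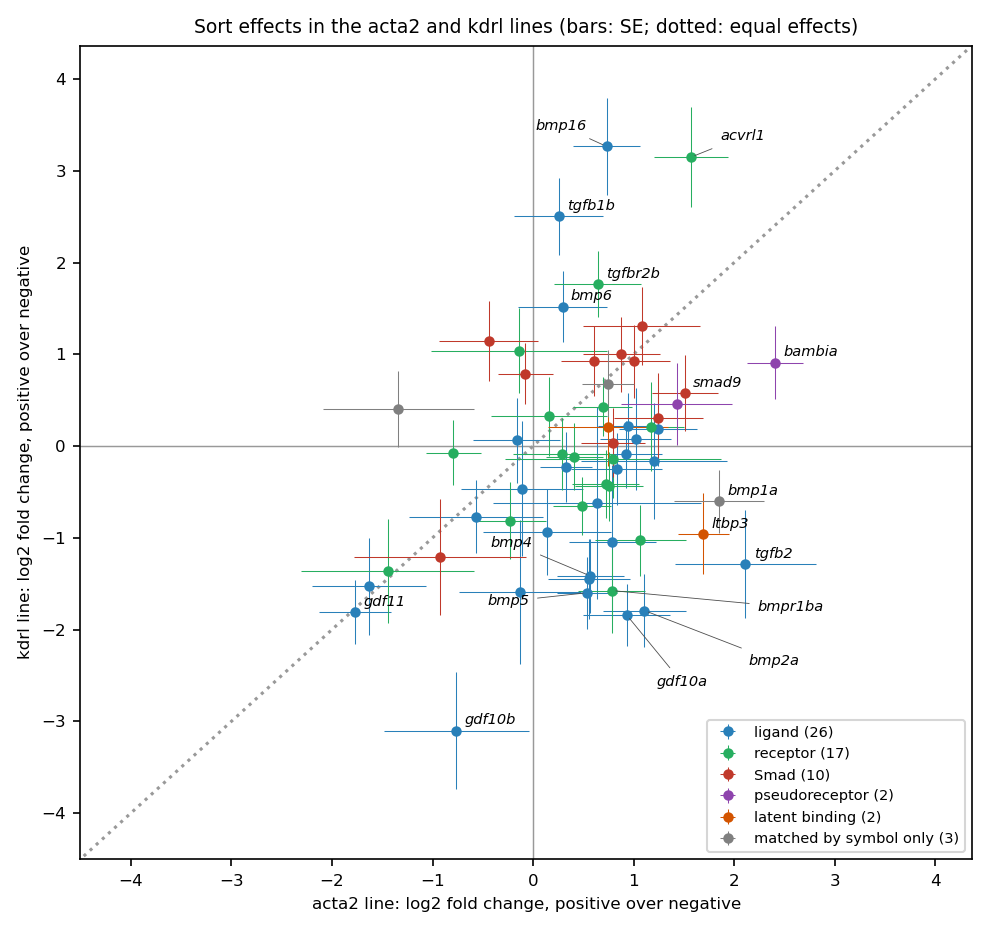
Log2 fold change of positive over negative cells in the kdrl line (vertical axis) against the acta2 line (horizontal axis) for the 60 members tested in both, colored by role, with bars for the standard error and a dotted line of equal effects. bmp16, tgfb1b and acvrl1 lie above the dotted line, the ligands bmp2a, bmp5 and gdf10a with ltbp3 and tgfb2 lie at the lower right, and gdf11 lies on the line at -1.77 and -1.81.

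Several of the family's genes exist in zebrafish as a and b copies, and their ratios are given here as log2((value + 1) of the a copy over (value + 1) of the b copy). The log2 ratio of tgfb1a to tgfb1b was -1.49 to -1.03 in kdrl-positive libraries and 0.44 to 1.92 in kdrl-negative ones, a mean difference of -2.43, whereas the same ratio stood higher in positive cells by 0.77 in the acta2 line and by 2.03 in the acta2/foxc1b line. In each of the 3 lines these ratios did not overlap between positive and negative libraries. The ratio of bmp1a to bmp1b was higher in positive cells by 3.19 in the acta2 line and 3.08 in the acta2/foxc1b line, and lower by 1.01 in the kdrl line (difference -1.01), again without overlap in any line. bmp2a to bmp2b separated in the kdrl line (difference -1.54), and tgfb2 to tgfb2l in the acta2/foxc1b line (3.74). These are ratios of value + 1 within a library, so that for a copy with few reads, such as tgfb2l, they depend on the added 1 and on the scaling, and they do not show which copy differed. Among the family's copy pairs the ratio did not overlap between groups, in either direction, for 2 of 15 in the acta2 line, 8 of 16 in the acta2/foxc1b line and 6 of 18 in the kdrl line. Over all pairs of tested genes whose symbols differ only in a final a or b, the share was 28.0% of 2319 pairs in the acta2 line, 29.9% of 2534 in the acta2/foxc1b line and 27.8% of 2748 in the kdrl line. The pairs named above were chosen after their values were seen. How reads that match both copies were counted is not given in the sources used here.

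Beyond the members, 81 other genes of the pathway were listed (antagonists, other ligands, intracellular regulators and target genes), and 72 were in the table. In the acta2 line 65 were tested, of which 6 rose and 2 fell, against 3.26% of all genes called higher and 3.75% lower. The risers were fstl1b, a follistatin-like secreted protein (log2 fold change 1.86, limma adjusted p = 0.0196), thbs1a, a thrombospondin able to release latent TGF-beta (2.08, 0.013), skilb, a Smad co-repressor (1.85, 0.0139), and the target genes tgfbi (1.93, 0.0171), msx1b (2.13, 0.0136) and msx2b (2.67, 0.00713). The fallers were fkbp1aa, which encodes a binding protein of type I receptors (-1.34, 0.0384), and junba (-1.58, 0.0137). In the acta2/foxc1b line 0 of 65 were called by limma. For these other genes only the main fit is given here, in every line, so how far their calls rest on single libraries is not shown. The part of cell type markers in these differences was not tested.

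In the kdrl line 1 of the 72 rose, fkbp1ab (log2 fold change 2.06, limma adjusted p = 0.0239), and 5 fell, each an extracellular antagonist, against 3.17% of all genes called higher and 2.79% lower. fstl3, an activin-binding follistatin relative, averaged 261 ± 154 normalized reads in kdrl-positive and 3973 ± 2423 in kdrl-negative libraries (SD, n = 3 each; log2 fold change -4.02, limma adjusted p = 0.00469). The others were the follistatin gene fstb (-3.04, 0.00366), the noggin genes nog1 (-2.36, 0.0437) and nog2 (-2.27, 0.0103), and grem2b of the gremlin family (-2.15, 0.0289). Photoreceptor (6 of 6), cartilage and fibroblast (3 of 7) and skeletal muscle (2 of 8) markers were called lower in the same kdrl-positive libraries. The part of these markers in the antagonists' falls was not tested. None of the 16 target genes measured was called in the kdrl line. In the difference of the acta2 and kdrl sort effects, 9 of the 72 were higher and 1 lower, among them nog2 (2.72), fstb (2.98), fstl3 (3.53), msx1b (3.14), tgfbi (2.22) and, lower, fkbp1aa (-2.34), where 2.80% of all genes were higher and 3.31% lower.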

How the data were processed

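Per the labels' protocols, RNA from sorted cells was extracted with TRIzol, primed with oligo dT, and, for the acta2 and acta2/foxc1b lines, amplified with REPLI-g before TruSeq adapters were added, whereas fixed kdrl cells went through the TotalScript kit. Build GRCz11 is named in the submitters' processing notes, beside DESeq2 1.20.0, featureCounts 1.5.2, bcl2fastq 2.14 and CASAVA 1.8.2. Not given in the sources used here are the aligner, the strand setting and the handling of shared reads.

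The deposited signal is a read count per gene divided by the authors' size factor, for 30220 genes and 17 libraries, in which 100% of values gave whole reads within 0.1 read. The acta2 and acta2/foxc1b libraries (11) had been scaled together and the kdrl libraries (6) apart. Per gene the table also gives the authors' log2 fold change, test statistic (a score, not used here), p-value and adjusted p-value. Without molecular identifiers, reads of amplified cDNA do not count separate molecules.

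Because the deposited values are not raw counts, genes were tested where at least as many libraries as the smaller group holds had 10 normalized reads or more, with limma 3.58.1 (trend, R 4.3.3) on log2(value + 1), two-sided, each line alone, with Benjamini-Hochberg adjustment over all genes tested. Differences of sort effects were fitted over the libraries of both lines. Alternatives were no filter, a mean of at least 50, pseudocounts of 0.5 and 10, quantile normalization, robust moderation, edgeR 4.0.16 and DESeq2 1.42.0 on the recovered reads, a replicate block, and each library left out. A fold change on this scale understates that of low genes. The scripts were tested on simulated data.

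Replicate numbers were checked by correlating, across genes, deviations from group means. Same-numbered kdrl libraries correlated at 0.475, 0.128 and 0.422 and were taken as paired. The acta2 libraries (0.00968, -0.0225 and -0.0137) and the acta2/foxc1b ones (0.144 and 0.0559, 2 pairs) were not. The main kdrl fit and the kdrl fits without single libraries had no term for this pairing, which only the block fits hold. The kdrl value of 0.128 for replicate 2 lay below the acta2/foxc1b value of 0.144, so pairing is less certain for kdrl replicate 2.

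Members were taken by gene symbol alone. The symbol pattern, the gene lists and the roles were set with earlier results of these data known. No count over the members or the listed genes is thus independent support. Values in every library are given for members called in a line or a difference, and for those with the highest mean in each role. Other members named, such as gdf2 and bmp10, were chosen for their known roles or after their values were seen. Genes were identified by symbol.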

Additional observations from a re-analysis of the deposited data

Results flagged for a closer look

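The sort effect, positive over negative cells, differed between the acta2 and kdrl lines for 10 members in the joint limma fit (Benjamini-Hochberg adjusted p under 0.05 over all genes). Of all 25490 genes tested, 2.80% had a higher effect in the acta2 line and 3.31% a lower one. The difference, the acta2 effect minus the kdrl effect in log2 units, was 3.40 for tgfb2, 2.90 for bmp2a, 2.78 for gdf10a, 2.65 for ltbp3, 2.45 for bmp1a, 2.36 for bmpr1ba, 2.14 for bmp5 and 1.99 for bmp4. It was -2.54 for bmp16 and -2.25 for tgfb1b. The bmp2a, gdf10a and ltbp3 differences kept their call without each of the 12 libraries in turn. The tgfb2, tgfb1b, bmp16 and bmp4 calls were lost in most of these fits, and the bmpr1ba, bmp1a and bmp5 calls in some of them. Stage, fixation and library kit differ with the line and cannot be told apart from it.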

How the results depend on the processing

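Over the members given with values in every library, 1123 of the refitted values kept their direction and side of the threshold, 96 lost a call, 19 gained one and 25 changed sign. DESeq2 on the recovered reads moved the count of members called higher to 9 in the acta2 line (6.65% of all genes) and 9 in the acta2/foxc1b line (3.0%). It moved the count called lower to 9 in the kdrl line (7.13%). The replicate block moved the count to 0 lower in the acta2 line (gdf11, limma adjusted p = 0.0524). It called 2.73% of all genes lower there, beside 5 members and 2.35% of genes higher. In the acta2/foxc1b line it moved the count to 2 higher (ltbp3, limma adjusted p = 0.0461, and tgfb2, 0.0365). That fit called 0.439% of all genes higher, and 0 members and 0.827% of genes lower. Replicate 3 of this line has no positive library, so its block term takes up negative replicate 3. The acta2/foxc1b sort effect in that fit thus rests on replicates 1 and 2 alone. In the kdrl line the block moved the count to 9 lower (6.41% of all genes). In the acta2 and acta2/foxc1b lines the samples share only a number. With no filter on low values, 1 member instead of 2 was lower in the acta2 minus kdrl difference. Leaving out each library in turn gave 2 to 5 higher and 0 to 1 lower in the acta2 line, 0 to 5 and 0 to 0 in the acta2/foxc1b line, 3 to 6 and 0 to 5 in the kdrl line, 0 to 0 both ways in the acta2/foxc1b minus acta2 difference, and 3 to 8 and 0 to 2 in the acta2 minus kdrl difference. Apart from the acta2/foxc1b fit without negative replicate 2, the shares of all genes called in these fits are not given here. Without them, the ranges do not show whether the members moved with all genes. A lone acta2/foxc1b-positive library was assumed to vary like the others. The signs that changed belonged to members not called in that line. In the acta2/foxc1b line, quantile normalization gave -0.24 for acvr1l, the block 0.042 for gdf11, edgeR -0.012 and DESeq2 -0.031 for tgfb1b, and single libraries left out gave -0.23 to 0.23 for acvr1l, -0.084 to 1.39 for bmp5, -2.82 to 0.69 for gdf11 and -0.41 to 0.55 for tgfb1b. In the kdrl line, quantile normalization gave -0.17 for ltbp1, and single libraries left out gave -0.12 to 0.59 for ltbp1, -0.35 to 0.12 for acvr1ba, -0.47 to 0.028 for bmp3 and -0.26 to 0.22 for tgfb3. In the acta2 line they gave -0.057 to 0.58 for bmp6 and -0.20 to 0.025 for smad1. The cause of these changes was not tested. Quantile normalization moved the median of all genes by 0.13 in the acta2 and 0.15 in the acta2/foxc1b line. Depth limits gdf2, bmp10 and gdf10b, which had few reads.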
